A study of Mus musculus with 4 samples.

Results

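The clustered protocadherins are neuronal cell-surface adhesion proteins encoded by neighbouring genes on mouse chromosome 18, in an alpha, a beta and a gamma cluster. The members were all protein-coding genes of that chromosome whose symbols begin with Pcdha, Pcdhb or Pcdhg, and they numbered 57 of 21631 protein-coding genes, with 14 alpha, 22 beta and 21 gamma members. The locus was taken from 100 kb before the first member to 100 kb after the last (chromosome 18, 36830285 to 37941873, build GRCm38). It held 19 of the 35505 TOP2B peak summits on the autosomes and X, and each summit was counted once. The rule uses gene symbols and positions only.

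TOP2B, a type II topoisomerase, is the form that neurons use, and TOP2Bcc-seq maps the places where it is covalently joined to cut DNA. Wild-type cortical neurons of Swiss-Webster mouse embryos (E16) were cultured and exposed to 50 µM etoposide, which keeps cut DNA from being rejoined, for 30 min before collection. The labels give 2 TOP2B ChIP libraries and 2 input libraries, all treated with the drug, so no untreated library serves as a control, and they do not say which cultures the libraries came from. The peaks were a single list pooled over libraries. No value below therefore has a replicate or an SD, the depth of the libraries is unknown, and intervals cover counting error only. A peak list holds no expression, so the labelled cell type could not be checked against marker genes.

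In the alpha and gamma clusters, each gene begins at its own promoter and variable first exon, which is then spliced to constant exons shared by the whole cluster. Beta genes have no such shared exons. A neuron uses only some of these promoters, chosen largely at random. Their use depends on DNA methylation and on CTCF and cohesin, which loop a promoter to distant enhancers. The C-type members at the end of the alpha and gamma clusters differ from the rest in sequence and are regulated apart from that random choice. The combination of isoforms lets the branches of a neuron recognise each other and keep apart. All members are known to be transcribed towards higher coordinates. The gene table used here gives no strand, so taking a member's lower coordinate as its start rests on that knowledge, as do all distances from starts below.

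The table of genes shows that shared architecture. The 14 alpha genes were 43.99 to 257.4 kb long and ended within 1240 bp of each other. The 21 gamma genes were 22.33 to 180.1 kb long and ended within 10 bp of each other. The beta genes were 2.34 to 5.271 kb long and lay side by side. Median distances between successive starts were 7.44 kb in alpha, 7.84 kb in beta and 5.37 kb in gamma. Because alpha and gamma genes contain one another, a summit near the shared end belongs to every gene of its cluster. Each summit was therefore also assigned to a single member by its own stretch, from the member's start to the next start in the cluster, or to the cluster's end for the last member. No sequence of this locus is printed here.

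Summits were present in all 3 clusters, with 3 in alpha, 2 in beta and 6 in gamma. Another 5 lay between beta and gamma, 2 in the flank before Pcdha1 and 1 in the flank after the last gamma gene. The 76.1 kb between alpha and beta held 0, which allows a density of up to 3.94 summits per 100 kb by the limit of 3 counts, or 4.85 by the upper end of the 95% Poisson interval used for the other segments. The locus as a whole had 17.1 summits per Mb (95% Poisson interval 10.3 to 26.7) against 14.8 on the autosomes. That ratio was 1.16, with an exact conditional interval of 0.698 to 1.81. Against chromosome 18 outside the locus, at 13.4 per Mb, it was 1.28 (0.768 to 2.01). Both intervals included 1, so a density different from the background was not detectable with 19 summits. When the autosomes were tiled with windows of the same length, 666 of 2143 windows (31.1%) held 19 or more.

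**Figure D1:**
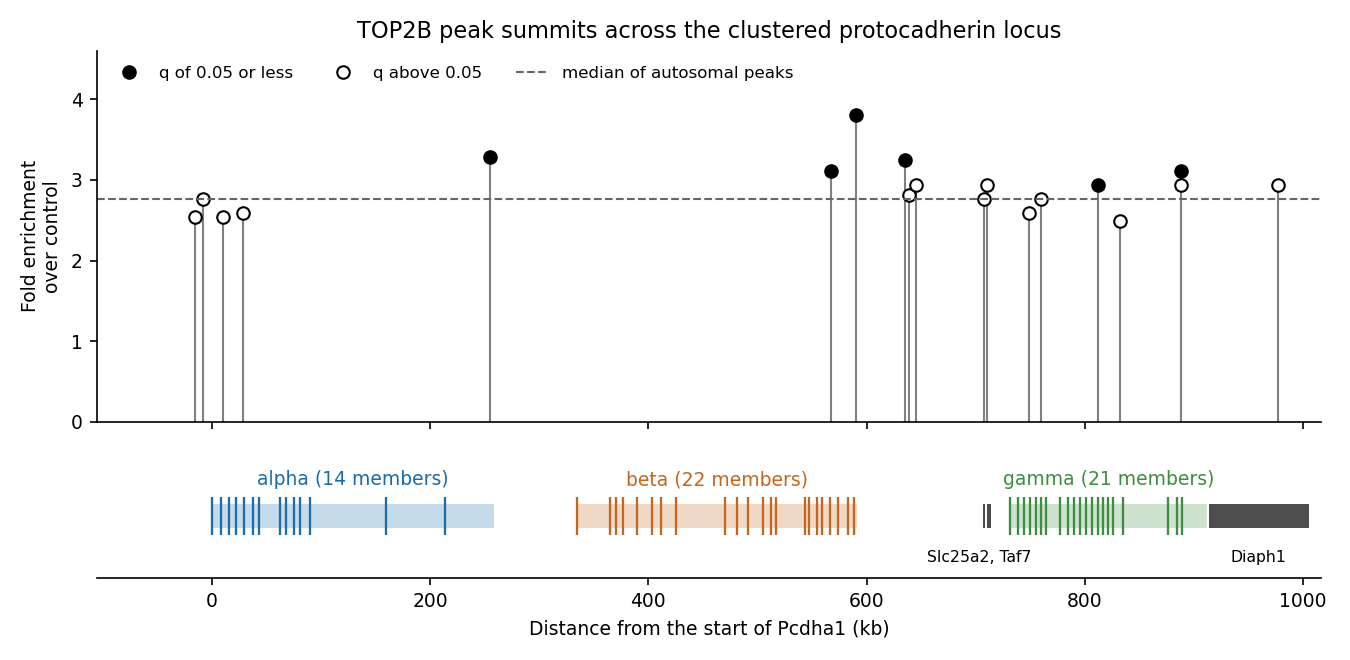
Fold enrichment of each of the 19 summits (vertical axis, linear) against distance from the start of Pcdha1 in kb, with filled points for a deposited q of 0.05 or less and a dashed line at the autosomal median fold of 2.77. Vertical ticks on the coloured bars below mark member starts, and grey bars mark Slc25a2, Taf7 and Diaph1. The points leave the later alpha starts and most beta starts uncovered and gather from the end of the beta cluster onwards.

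The alpha cluster (36930285 to 37188897, 258.61 kb) carried a pair of summits near its first genes and a single one near the shared end. Pcdha2, an alpha member with its own first exon, held a summit at 36940489, 1284 bp after its start. Its fold over control was 2.54, with 14 reconstructed ChIP fragments and a deposited q of 0.177. The next summit, at 36959057 in the stretch of Pcdha4, lay 1219 bp before the start of Pcdha5. It had a fold of 2.59, 14 fragments and a q of 0.177. Neither reached a q of 0.05.

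The third alpha summit, at 37184836, was in the stretch of Pcdhac2, a C-type member. It lay 41158 bp after the start of that gene and 2821 bp before the end annotated for Pcdha1, in the part of the cluster that all 14 alpha genes span. Its fold was 3.29, with 18 fragments and a q of 0.0208. No exon annotation was used here, so its place relative to the constant exons is not given. The stretches of the other 11 alpha members held no summit. They were Pcdha1, Pcdha3 and a run of 9 from Pcdha5 to Pcdhac1.

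The beta cluster (37264998 to 37521419, 256.42 kb) held summits only in 2 of its last 4 genes. Pcdhb19 had one at 37498058, 1060 bp after its start, with a fold of 3.11, 17 fragments and a q of 0.039. Pcdhb22, the last beta gene, had one at 37520213, 1860 bp after its start and 1206 bp before its end. This was the highest fold of the 19 in the locus and picked as such, at 3.805, with 21 fragments and a q of 0.00162. A fold this high or higher was found at 440 of the 35505 summits (1.24%). Its interval (37519852 to 37520324) was also the widest of the locus and picked as such. It was 473 bp wide, a width reached by 0.932% of the list. Beta was the only cluster in which every summit had a q of 0.05 or less, but it held only 2.

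The other 20 beta genes had no summit in gene or stretch. The first 18, from Pcdhb1 to Pcdhb18, formed an unbroken run, and Pcdhb20 and Pcdhb21 followed between the occupied genes. From the alpha summit at 37184836 to that in Pcdhb19, 313.22 kb held no summit and 19 member starts. This was the longest distance of the locus and was picked as such. Of 35296 single distances between neighbouring autosomal summits, 641 (1.82%) were as long. The preceding distance in the alpha cluster, 225.78 kb with 10 member starts, was reached by 4.66%. Together these intervals took in 29 of the 57 starts. The median autosomal distance was 41.1 kb, and that within the locus was 21.1 kb. Reads from members of near-identical sequence may map to more than one member, and how the authors treated such reads is not given in the sources used here. Its part in these empty runs was not tested.

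The gamma cluster (37661775 to 37841873, 180.1 kb) had summits spread over its length. The first, at 37679553, lay in the stretch of Pcdhga3 and 719 bp before the start of Pcdhgb1, with a fold of 2.59, 14 fragments and a q of 0.177. The second, at 37689797, lay in the stretch of Pcdhga4 and only 62 bp before the start of Pcdhgb2, the closest of any summit to a member start. It had a fold of 2.77, 15 fragments and a q of 0.11. The next was found inside Pcdhgb6 at 37742737, 643 bp after its start, with a fold of 2.93, 19 fragments and a q of 0.039.

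Another gamma summit, at 37762832, lay in the stretch of Pcdhga11, 7059 bp after its start. It had a fold of 2.49, the lowest of the locus, with 16 fragments and a q of 0.158. It also lay 1031 bp after the start of Pcdhgb8, which the gene table lists as a transcribed pseudogene and which is thus not a member. The last pair lay in the stretch of Pcdhgc4, a C-type member. Their summits, 37817944 and 37818374, were 430 bp apart, the shortest distance of the locus and picked as such. Of neighbouring autosomal summits, 0.340% were as close. The first of the pair had a fold of 3.11, 17 fragments and a q of 0.039. The other had a fold of 2.94, 16 fragments and a q of 0.0675. They lay 1602 and 1172 bp before the start of Pcdhgc5, which held no summit of its own. With summits less than 500 bp apart counted as 1, gamma had 5.

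Between beta and gamma lay 140.35 kb without members but with 5 summits. The first 3, at 37565070, 37569187 and 37575775, fell within 10.7 kb, the most compact run of 3 in the locus and picked as such. Of runs of 3 neighbouring autosomal summits, 2.38% were as compact. The 3 summits after the beta cluster had folds of 3.24, 2.81 and 2.94, with 19, 17 and 16 fragments and q of 0.0173, 0.0675 and 0.0675. They were 46717 to 57422 bp after the start of Pcdhb22. The other pair lay in genes of other families that sit among the protocadherins. Slc25a2, a mitochondrial carrier gene, had a summit at 37638316, 407 bp inside its upper end, with a fold of 2.77 and a q of 0.11. Taf7, which encodes a subunit of the general transcription factor TFIID, had one at 37640893, 402 bp inside its lower end, with a fold of 2.94 and a q of 0.0675.

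Densities were 1.16 summits per 100 kb in alpha (95% Poisson interval 0.239 to 3.39), 0.780 in beta (0.0945 to 2.82) and 3.33 in gamma (1.22 to 7.25). Between beta and gamma the density was 3.56 (1.16 to 8.31), and the autosomes had 1.475. Gamma was thus 2.87 times as dense as alpha, with an exact conditional interval of 0.613 to 17.8. It was 4.27 times as dense as beta (0.764 to 43.3), and alpha was 1.49 times as dense as beta (0.170 to 17.8). The stretch between beta and gamma was 4.57 times as dense as beta (0.748 to 48.0), 3.07 times as dense as alpha (0.598 to 19.8), and gamma was 0.935 times as dense as that stretch (0.238 to 3.87). All 6 intervals included 1. The clusters were therefore not distinguishable by density, though their counts would also be compatible with several-fold differences. Restricted to q of 0.05 or less, the 3 clusters held 1, 2 and 2 summits.

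Windows of each cluster's length tiled over the autosomes place these counts. For gamma, 8.96% of windows held 6 or more summits, and the median window held 2. For the stretch between beta and gamma, 8.96% of windows held 5 or more, again with a median of 2. For alpha the median was 3, as observed. For beta the median was 3, and 35.4% of windows held 2 or fewer.

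**Figure D2:**
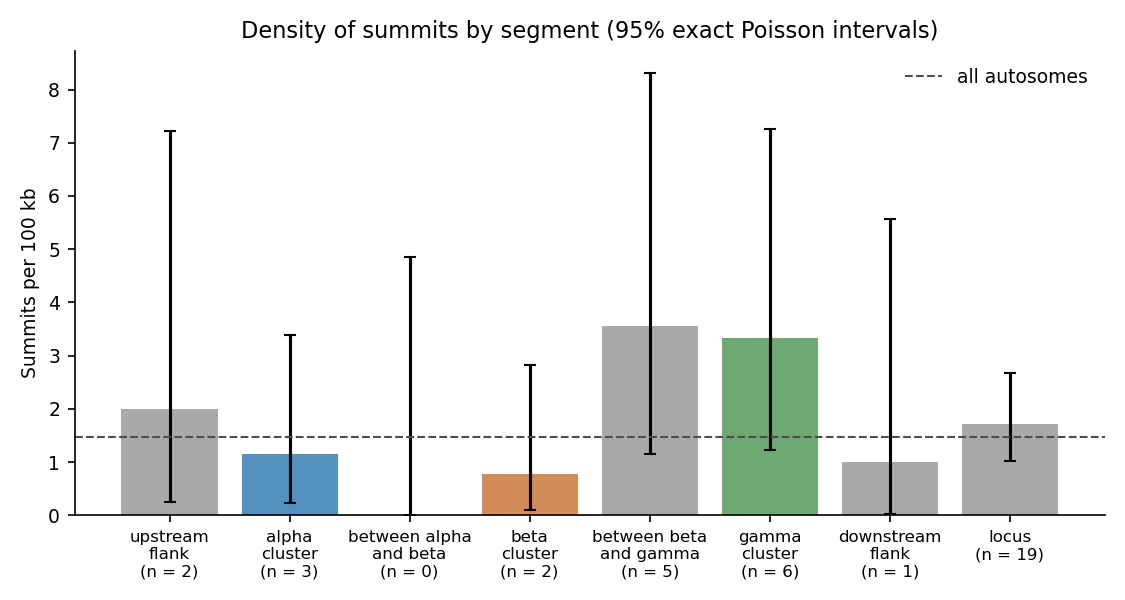
Summits per 100 kb (bars) in the clusters, the stretches between and beside them and the whole locus, with 95% exact Poisson intervals, the number of summits under each bar and a dashed line at the autosomal 1.475. Gamma (3.33) and the stretch before it (3.56) stand highest and beta (0.780) is the lowest segment with a summit, and every interval overlaps the others.

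Counted by gene rather than by summit, 36 of 57 members (63.2%) had a summit in the gene or within 1 kb of it, against 38.6% of all protein-coding genes. Members share summits, so this share does not show that the family is richer than others. All 14 alpha genes were counted because they all span the summit at 37184836, and 20 of 21 gamma genes because they span the pair beside Pcdhgc5. Only 2 of 22 beta genes (9.09%) had a summit in or within 1 kb. Of all protein-coding genes in the length range of the beta genes, 13.6% had one, and in the ranges of the alpha and gamma genes 72.1% and 58.4%. By own stretch, where each summit counted for a single member, 10 of 57 members were occupied, with 3 in alpha, 2 in beta and 5 in gamma.

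A summit within 1 kb of a gene end was found at 3 of 57 members (5.26%), against 8.30% of all protein-coding genes. All 3 were gamma B members, Pcdhgb1, Pcdhgb2 and Pcdhgb6, and in each case the end was the start of the gene. The 8.30% counts both ends of each gene, whereas alpha and gamma members share their upper ends. For lower ends alone, the share within 1 kb of a summit was 5.26% of members and 4.61% of autosomal protein-coding genes. The gamma B genes, which alternate with gamma A genes along the cluster, numbered 6, so 3 of 6 gamma B and 0 of 12 gamma A starts lay within 1 kb of a summit. The summits before Pcdhgb1 and Pcdhgb2 were in the stretches of gamma A members, Pcdhga3 and Pcdhga4. By own stretch, 3 of 12 gamma A and 1 of 6 gamma B members held a summit. Their densities were 2.61 (Poisson interval 0.539 to 7.64) and 3.35 (0.0848 to 18.7) per 100 kb. Pcdhgb4, Pcdhgb5 and Pcdhgb7 were 22361, 11766 and 8882 bp from their nearest summit. This grouping by subfamily was made after the positions were seen, and no difference between the subfamilies was tested. Only the summit at Pcdhgb6 had a q of 0.05 or less. Just outside the 1 kb limit were Pcdhb19 at 1060 bp, Pcdhgc5 at 1172 bp, Pcdha5 at 1219 bp and Pcdha2 at 1284 bp from their starts, and Pcdhb22 at 1206 bp from its upper end. With a window of 5 kb the count rose to 27 members (47.4%, against 29.4% of all protein-coding genes), but 14 of these were alpha genes, all of which end within 5 kb of the summit at 37184836.

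Distances from member starts to the nearest summit differed in range between the clusters. In gamma the median was 5.80 kb (0.062 to 25.04), in alpha 24.1 kb (1.219 to 94.7) and in beta 69.5 kb (1.060 to 156.4). The lower ends of 20665 autosomal protein-coding genes had a median of 19.6 kb, with quartiles of 7.07 and 45.5 kb. A summit lay within 5 kb of 9 of 21 gamma starts (42.9%), 2 of 14 alpha starts (14.3%) and 2 of 22 beta starts (9.09%), beside 19.1% of those autosomal genes. The member farthest from a summit was Pcdhb7, at 156.4 kb. Members close together share their nearest summit, so these distances are not independent and were not tested.

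**Figure D3:**
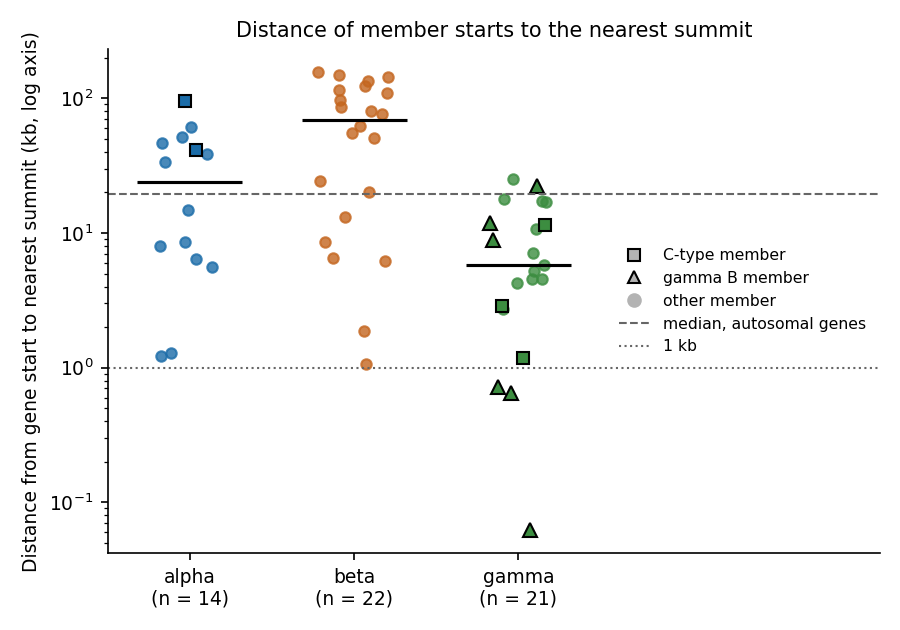
Distance in kb (log axis) from each member's start to the nearest summit, by cluster, with squares for C-type, triangles for gamma B and circles for other members. Short horizontal lines are cluster medians (24.1, 69.5 and 5.80 kb for alpha, beta and gamma), the dashed line is the autosomal median of 19.6 kb, and the 3 points under the dotted 1 kb line are Pcdhgb1, Pcdhgb2 and Pcdhgb6.

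Seen from the summits, most of those inside the clusters lay within 2 kb of a member start. Within 2 kb of a start were 9 of the 11 summits (81.8%, exact binomial interval 48.2 to 97.7), while the same windows covered 31.9% of the clusters' length, a ratio of 2.56. The limit of 2 kb was chosen after these positions were seen. Within 1 kb were 3 of 11 summits (27.3%) against 15.98% of the length, a ratio of 1.71 (0.377 to 3.82). Within 3 kb were 10 of 11 against 45.1%, a ratio of 2.02 (1.30 to 2.21), and within 5 kb 10 of 11 against 58.4%, a ratio of 1.56 (1.01 to 1.71). On the autosomes other than 18, summits within 2 kb of a start of a protein-coding gene were 4.37% against 2.95% of the length, a ratio of 1.48. There the ratio was 1.61 at 1 kb, 1.39 at 3 kb and 1.37 at 5 kb. The clusters' intervals at 1 kb, 3 kb and 5 kb included these autosomal values. At 2 kb the interval of the pooled ratio, 1.51 to 3.06, lay above the autosomal 1.48. That ratio does not allow for where the summits were, with 6 of 11 in gamma. The 2 kb windows covered 45.5% of gamma, against 20.9% of alpha and 33.6% of beta. By cluster the ratio was 3.19 in alpha (0.451 to 4.75), 2.98 in beta (0.471 to 2.98) and 1.83 in gamma (0.788 to 2.19). Each of these intervals included 1.48. All these intervals take the summits as independent, among them the pair 430 bp apart. Because 2 kb was also picked after the positions were seen, a difference from the autosomes was not established. Of the 9 summits, 5 lay before the nearest start (at Pcdha5, Pcdhgb1, Pcdhgb2 and the pair at Pcdhgc5) and 4 after it (at Pcdha2, Pcdhb19, Pcdhb22 and Pcdhgb6).

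**Figure D4:**
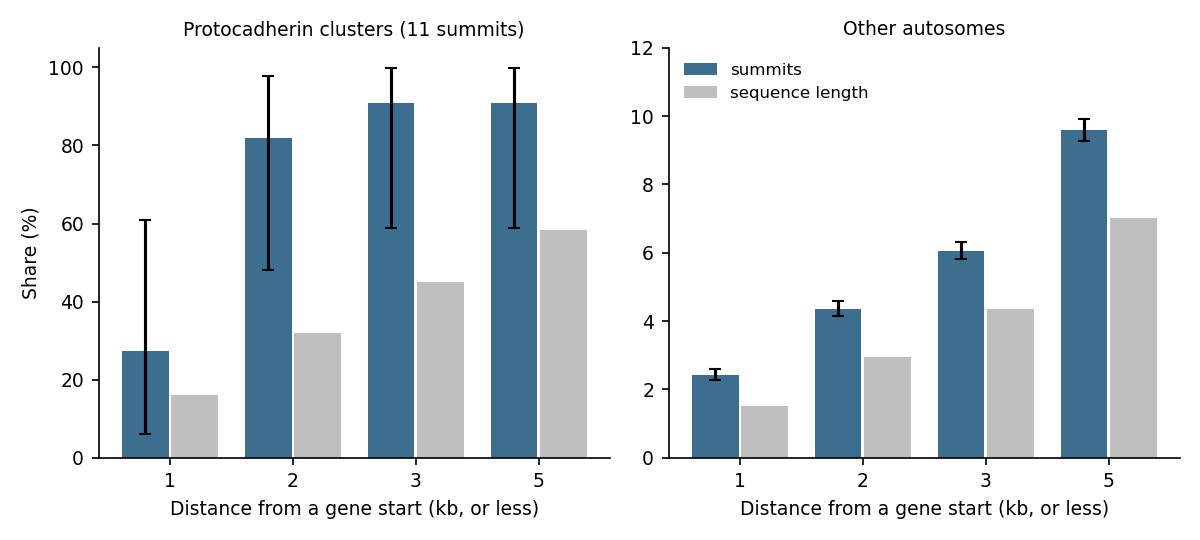
Share of summits (blue, with 95% exact binomial intervals) and share of sequence length (grey) within 1, 2, 3 and 5 kb of a gene start, for the 11 summits inside the protocadherin clusters (left) and for the other autosomes (right, with its own scale). In the left panel the blue bar rises from 27.3% at 1 kb to 81.8% at 2 kb while the grey bar goes from 15.98% to 31.9%.

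Of the 5 C-type members, 2 had a summit in their own stretch. Pcdhac2 held 1 and Pcdhgc4 held 2, whereas Pcdhac1, Pcdhgc3 and Pcdhgc5 held 0. Their stretches together had 2.24 summits per 100 kb (Poisson interval 0.461 to 6.53). Those of the other 52 members had 1.43 (0.616 to 2.81), with 8 summits in 8 members. The ratio was 1.57, with an exact conditional interval of 0.268 to 6.53, so no difference was detectable. The stretches of Pcdhac2 and Pcdhgc5 take in the shared end of their clusters.

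Peak heights in the locus were within the common range of the list. The 19 folds ran from 2.49 to 3.805 with a median of 2.93, and the autosomal median was 2.77 (quartiles 2.49 and 2.94). The summits held 14 to 21 reconstructed fragments with a median of 16, against 15 on the autosomes. The control level was 4.78, the most common one of the list, at 13 of the 19 and at most 5.82 at the others. Fold is taken here as fragments over that level, with the same constant added to both. In this locus it thus ranks summits mainly by a difference of a few fragments. A q of 0.05 or less was found at 6 of 19 summits (31.6%, Wilson interval 15.4 to 54.0), against 23.4% of the whole list. Those 6 were at the shared alpha end, Pcdhb19, Pcdhb22, the first summit after the beta cluster, Pcdhgb6 and the first of the pair in Pcdhgc4. The other 13, among them 4 of the 6 gamma summits, had q of 0.0675 to 0.177 and are weak evidence for any single gene.

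**Figure D5:**
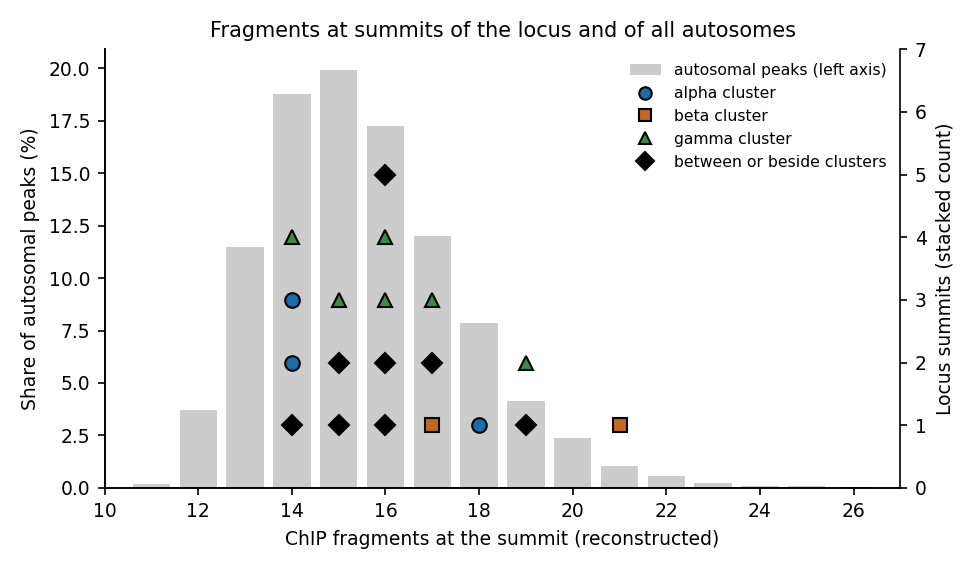
Reconstructed ChIP fragments at the summit (horizontal axis), as the share of autosomal peaks (grey bars, left axis) and as the 19 summits of the locus stacked by value (symbols, right axis). The locus lies between 14 and 21 fragments. The summit of Pcdhb22 (21) has the most of the 19 and was picked as such, and 2.30% of autosomal peaks hold as many or more.

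Compared with related families, the protocadherin clusters were not set apart by density. Together the 3 clusters had 1.58 summits per 100 kb (0.790 to 2.83). The 10 autosomal non-clustered protocadherin genes, which encode related adhesion proteins from scattered loci, had 1.56, and the ratio of clusters to these genes was 1.01 (0.474 to 1.98). Pcdh15 had most of them, with 25 summits in 1553.6 kb. The Hox clusters, another set of tandem genes, had 2.03 per 100 kb, and the ratio to them was 0.779 (0.3002 to 2.05). Hoxa3, which overlaps neighbouring Hox genes, had most of these, with 2.

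Genes that act on protocadherin promoters or with the proteins are spread over other chromosomes. Of 16 regulators of promoter choice and chromatin, 10 (62.5%) had a summit in or within 1 kb of the gene, beside the 38.6% of all protein-coding genes given above. Stag1, a cohesin subunit gene, had most, with 5 in 360.84 kb, and Nipbl (cohesin loader), Pds5a and Pds5b (cohesin regulators), Wapl (cohesin release), Wiz and Smchd1 (a silencing factor of these clusters) had 2 each. Smc3, which encodes a cohesin core subunit, was the only regulator with a summit within 1 kb of an end (fold 2.77, q 0.11). Ctcf, which binds the promoters and enhancers of the clusters, had 0, as did Dnmt3b, Rest and Mau2 and, on the X chromosome, Smc1a and Stag2. Of the 35505 summits, 35315 were on autosomes, so few lay on X. The lack of summits in Smc1a and Stag2 therefore carries little information. All 10 regulators with a summit were among the 14 on autosomes. Of 12 partners and processing enzymes, 8 (66.7%) had a summit. They were led by Ptk2, a kinase bound by the shared intracellular part, with 4 in 218.72 kb, and Cyfip2, of the actin-regulating WAVE complex, with 3. Fyn, a tyrosine kinase gene, also had 3 when those within 1 kb are counted, 2 of them inside the gene, and had the only end summit of that list (fold 2.59, q 0.14). These lists hold many long genes, which contain more summits, and were not tested.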

How the data were processed

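The file used was a peak list that the authors deposited in narrowPeak layout, without a header. Per the submitters' processing notes, FastQC, Trimmomatic, BWA, SAMtools and MACS2 were used on builds mm10 and GRCm38.p6. Versions, caller settings, the handling of duplicate and multi-mapping reads, and the choice of pooled libraries were not stated there. Fold enrichment is the authors' deposited ratio, at the summit, of ChIP pileup to control, taken here to have 1 added to both. The −log10 p and −log10 q are the authors' deposited values per peak. The deposited whole-number score was not used. Deposited positions in bp were made 1-based, and 34 entries on scaffolds and patches were left out.

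Fragments and control level at a summit were solved from deposited fold and p (a whole number within 0.002 of −log10 p), uniquely for 99.97% of 35505 peaks. Genes came from the RefSeq table of GRCm38.p6, which has neither strand nor exons. Starts of genes on other autosomes came from RefSeq promoter positions of the same build (16457 protein-coding genes matched by symbol). No genome sequence was used.

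Summits were assigned to segments, and densities were given with exact Poisson intervals, ratios with exact conditional binomial intervals and shares with Wilson or exact binomial intervals (95%), using scipy 1.17.1. Background densities span the first to the last summit of each chromosome, runs of unknown bases included. No test was made across regions. Counting at gene ends and in genes, the reconstruction and the ratio interval were tested on simulated data, using long genes far from their neighbours. Simulated fold and p were made with the formula that the reconstruction inverts. That step therefore does not check whether the deposited values follow the formula. The ratio interval was simulated only at larger counts than those of the clusters. Overlapping or short genes, own stretches and windows around starts were not simulated. Named genes were members with a summit within 1 kb of an end or in their own stretch, other protein-coding genes of the locus with a summit, and, of each list or family, the gene or 2 genes with most summits and those of the regulator and partner lists with an end summit; others were named to complete a count. Members, lists and rules were chosen with earlier results of these data known.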

Additional observations from a re-analysis of the deposited data

How the results depend on the processing

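Each of 12 results was recomputed under 48 alternatives in all, and 39 stayed within 1.5 times a count or inside the interval of a ratio or median. The intervals of the cluster ratios were wide, such as 0.170 to 17.8 for alpha over beta. Staying inside them therefore does not show that those ratios were stable. With q of 0.05 or less the locus held 6 summits, alpha 1 and gamma 2, and 1 member had a summit at an end. With fold at or above the list median alpha held 1, and alpha was 0.496 times as dense as beta under both of these limits, in place of 1.49. Gamma was 1.42 times as dense as beta at q of 0.05 or less, in place of 4.27, and 5.74 times as dense as alpha with fold at or above the median, in place of 2.87. The locus was 1.56 times as dense as the autosomes at q of 0.05 or less, in place of 1.16. With fold at or above the median it was 1.62 times as dense. Both values lay inside the interval of 0.698 to 1.81. A window of 500 bp around ends left 1 member, one of 5 kb gave 27, and own stretches in place of whole genes gave 10 members with a summit. Within 1 kb of a start, a distance added after seeing the data, lay 3 summits. The interval in place of the summit gave 4 members at an end, with Pcdhb19 added. No paired analysis was possible because the list is pooled over libraries and holds no value per library, and for the same reason no library could be left out. Unknown depth and summits of only 14 to 21 fragments limit what single summits can show.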

Other observations

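Read-through gene models joined the clusters. Gm37013 (36952648 to 37841873), Gm38666 and Gm38667 are listed as protein-coding, begin among the alpha genes and end with the gamma genes, and held 15, 14 and 14 summits. They are not members by symbol, and the summits between beta and gamma, outside every member, lie inside all 3 of them.

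In the flank before the alpha cluster, summits lay at 36915229 (fold 2.54, q 0.177) and at 36922285 (fold 2.77, q 0.11), 8000 bp before the start of Pcdha1. The second was 78 bp above the upper end of Gm6756, a transcribed pseudogene. In the flank after the gamma cluster, Diaph1, which encodes an actin-nucleating formin, held a single summit at 37906865, with a fold of 2.94 and a q of 0.0675, 63264 bp inside its lower end. The 7 genes of the locus listed simply as pseudogenes held no summit. They were only 0.091 to 13.98 kb long, so their lack of summits carries little information.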
